A study of Mus musculus with 32 samples.

Results

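Plvap, Esm1, Apln, Aplnr, Cd34, Cav1, Cav2 and Emcn are genes of the islet capillary: its fenestrated, caveolated wall and the cells that lead new sprouts. They were taken by symbol from the deposited table of normalized expression, which held all 8 of them among 22850 genes. The table came from RNA-sequencing of endothelial cells (ECs), macrophages (MΦs) and β cells sorted from mouse islets before, during and after a burst of VEGF-A. All groups, controls included, carried the same 3 transgenes, MIP-GFP; RIP-rtTA; TetO-VEGF-A: the mouse insulin promoter (MIP) drives GFP, and the rat insulin promoter (RIP) drives the transactivator rtTA, so that human VEGF-A is made by β cells while doxycycline (Dox) is given. The mice were 8 to 16 weeks old at the start. Mice of the No Dox group received no drug, those of the 1wk Dox group drank water with 5 mg/ml Dox for 1 week, and those of the 1wk WD group were studied 1 week after its withdrawal (WD). There was no group without the transgenes. Cells were sorted as CD31+ (ECs), CD11b+ (MΦs), or GFP+ without either (β cells), and islets from several mice went into each sample. Baseline, induction and withdrawal were covered by 4, 1 and 5 samples of ECs, 4, 2 and 4 of MΦs, and 4, 5 and 3 of β cells.

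VEGF-A that β cells secrete keeps islet capillaries dense and fenestrated, and ECs exposed to more of it sprout. At the front of a sprout, tip cells express Esm1 (endocan, a secreted proteoglycan) and Apln (the peptide apelin), while the apelin receptor Aplnr is a feature of the stalk and of veins. Plvap forms the diaphragms that span fenestrae and the necks of caveolae, Cav1 and Cav2 are the coat proteins of caveolae, and Cd34 and Emcn (endomucin) are sialomucins of the luminal surface.

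The deposited values are scores: expression normalized by the authors, rounded to integers with a floor of 1. They are not reads, so the depth behind a score is unknown, and they are not per length, so each gene is compared only with itself. Scores summed to between 23465985 and 53441769 per sample. The EC label held: 10 endothelial identity genes (Pecam1, the gene of the sorting antigen CD31, with Cdh5, Tie1, Tek, Eng, Esam, Egfl7, Cldn5, Robo4 and Erg) summed to 265496 to 365255 in ECs, 1127 to 39168 in β cells and 2017 to 4143 in MΦs. Cldn5 was the one low member of that list, at 47 to 90 in No Dox ECs. In ECs, 10 β cell genes summed to 371 to 3339 and 10 MΦ genes to 3991 to 6577. Mertk made up most of that MΦ sum, at 5032 to 5904 in No Dox ECs, where the next highest, Csf1r, scored 273 to 317. Of those MΦ genes, 1 or 2 stood at the floor of 1 in 9 of the 10 EC samples, Fcgr1 in each of these. Genes of pancreatic acinar cells differed widely between samples of one group, from 57666 to 1552663 in No Dox ECs against 657 to 55318 at 1wk WD, and from 28177 to 10877368 in No Dox β cells against 204 to 18756 at 1wk Dox.

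All 8 genes were EC genes in this table. At No Dox, every one of them was higher in ECs than in β cells and in MΦs by limma at a Benjamini-Hochberg adjusted p under 0.05 and a fold of 2 or more, the threshold for a call throughout. The background is that 16.5% of all genes tested were called higher in ECs than in β cells and 15.9% higher in ECs than in MΦs. The median log2 difference of the 8 genes was 7.62 over β cells and 8.69 over MΦs, against -0.066 and -0.011 for all genes. Over β cells the differences ran from 56.0-fold for Cav2 (log2 5.81, adjusted p = 4.66e-04) to 423-fold for Esm1 (log2 8.72, adjusted p = 1.06e-05). Leaving out 1 sample moved Cav2 between log2 5.02 (without β cell replicate 1) and 6.90 (without replicate 4), and Esm1 between 7.87 (without β cell replicate 4) and 9.04 (without replicate 2). Over MΦs, Esm1 differed 4550-fold (log2 12.15, adjusted p = 5.31e-07) and Emcn 2750-fold (log2 11.42, adjusted p = 1.67e-08). Cav2 was the exception in MΦs, with a 10.3-fold difference (log2 3.36, adjusted p = 0.0156). With 1 sample left out, Esm1 ran from log2 11.61 (without MΦ replicate 3) to 12.83 (without MΦ replicate 1), and with a pseudocount of 20 it was 10.37.

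The same held after withdrawal. At 1wk WD all 8 genes were again called higher in ECs, where the background was 14.8% against β cells and 19.6% against MΦs. The median log2 difference of the 8 was 5.54 over β cells and 8.38 over MΦs, and that of all genes -0.12 and -0.0052. Cav2 again differed least from MΦs, by 9.6-fold (log2 3.26, adjusted p = 5.83e-08). Of 17 other genes known for tip cells, 16 were called higher in ECs than in β cells at No Dox and 14 at 1wk WD, and against MΦs 13 and 15, with 2 called lower in ECs at each time. The partners that build the caveola coat and neck, 11 genes of which 9 were tested at No Dox, were less uniform. In each of the 4 comparisons 5 were called higher in ECs, among them the cavins Ptrf (Cavin1), Sdpr (Cavin2) and Prkcdbp (Cavin3). In every comparison but that with β cells at No Dox, 2 partners were called lower in ECs. In sorted bulk samples a low score in β cells or MΦs may come from few ECs among the sorted cells or from little RNA in each cell, and these cannot be told apart.

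**Figure D1:**
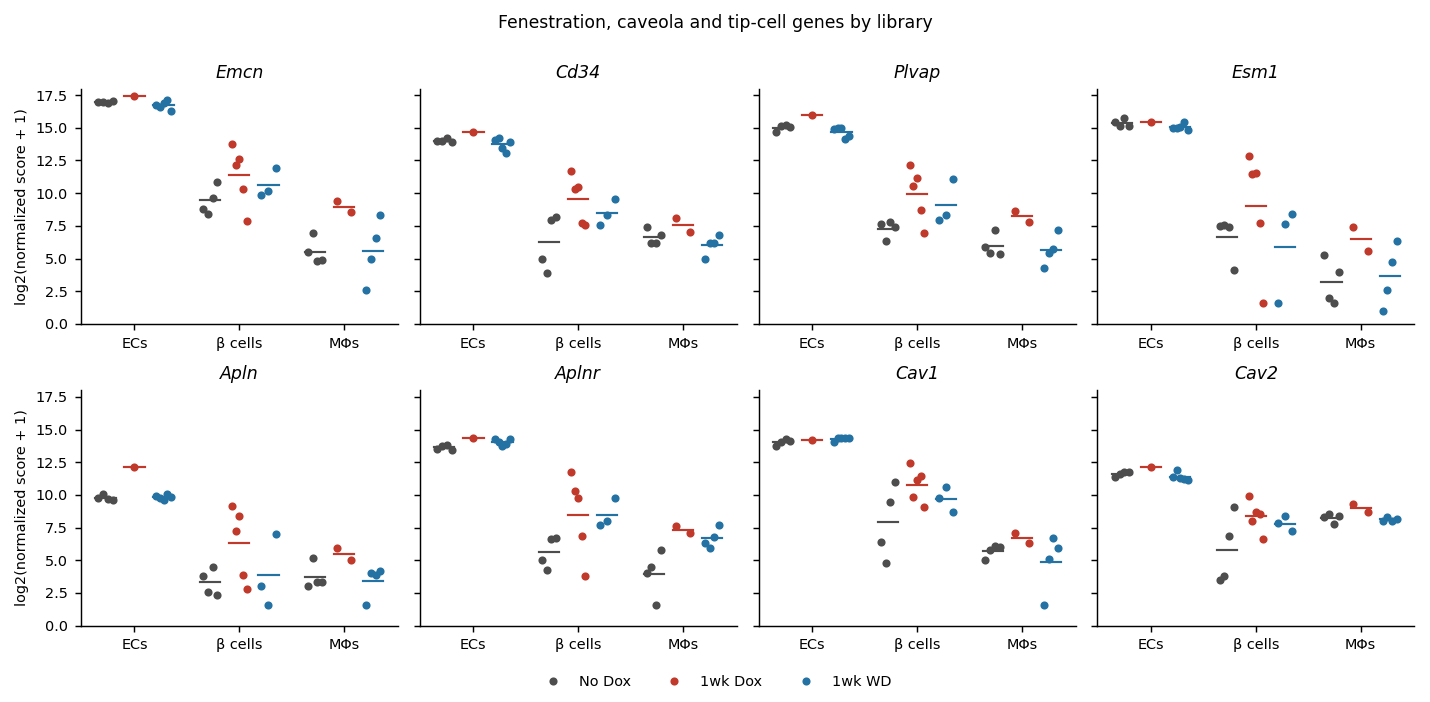
Each panel shows 1 gene, with log2(score + 1) on the vertical axis, 1 point per sample by cell type and time point, and a bar at the mean. EC points lie above those of MΦs in all 8 panels, and β cell samples at 1wk Dox are spread widely, as for Esm1, which ran from 2 to 7328.

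In ECs the largest difference of the 8 genes from No Dox was that of Apln in the 1wk Dox sample. By means of log2(score + 1), Apln was 5.04-fold higher there than at No Dox and Plvap 1.99-fold, while Esm1 and Cav1 lay inside their No Dox range. The group means of Esm1 and Cav1 differed more at 1wk WD, by log2 -0.31 and 0.24, against 0.10 and 0.12 in the 1wk Dox sample. With 1 sample there is no replicate check, so the 1wk Dox differences are given as a description. Of the 8 genes, 6 were above every No Dox EC sample, where 35.9% of all genes were. Only Apln differed by 2-fold or more (Plvap too when No Dox replicate 2, 3 or 4 was left out), where 10.7% of all genes did so in either direction. The median log2 difference of the 8 was 0.58, against 0.058 for all 14047 genes compared. In the same sample all 6 acinar genes were below the No Dox range (median log2 difference -10.93, sum 202 against 57666 to 1552663), all 10 β cell genes were lower (-1.08) and 9 of 10 pericyte and fibroblast genes were higher (0.72), and their part was not tested.

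After withdrawal, no gene of the 8 was called by limma against No Dox, and the background was 1.76% of all genes. At an unadjusted p under 0.05 there was 1 of the 8 (Aplnr), against 21.9% of genes. The No Dox and 1wk WD scores overlapped for every one of the 8, where 10.7% of all genes did not overlap. Their median log2 difference was -0.22, with 3 higher and 5 lower (4 and 4 after quantile normalization, where Emcn turned to 0.041), against 0.0025 for all genes. Within these ECs, other cell types moved as well. All 9 pericyte and fibroblast genes tested were higher at 1wk WD and 4 were called (Rgs5, Des, Col1a1 and Col1a2, by log2 1.47 to 2.31), and their list summed to 5650 to 12633 at No Dox, to 14516 in the 1wk Dox sample and to between 16711 and 70150 after withdrawal. All 6 acinar genes were called lower at 1wk WD. Of these 10 calls, Col1a2 alone was kept without No Dox replicate 1. All 10 were lost in limma with no trend of the spread (adjusted p from 0.0518 for Col1a2 to 0.092 for Pnlip). Des and Col1a1 were also lost in the replicate block (0.0746 and 0.0841). The part of either list in the EC values was not tested. Of the 10 endothelial identity genes, 5 were higher and 5 lower at 1wk WD (median log2 difference -0.034) and limma called 0. For 4 of them the groups did not overlap: Eng (log2 -0.81, adjusted p = 0.0423), Egfl7 (-0.41, 0.119) and Tie1 (-0.27, 0.171) were lower, and Cldn5 (0.93, 0.0781) was higher.

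Plvap (ENSMUSG00000034845, mm9 chr8:74021653-74035668, minus strand), the diaphragm protein, scored 26298, 36313, 37203 and 34114 in the No Dox ECs and 65953 in the 1wk Dox EC sample. At 1wk WD it scored 31350, 31868, 32183, 17977 and 20679. The 1wk Dox sample stood above all others, and replicates 4 and 5 of 1wk WD were below every No Dox sample. The 1wk Dox sample differed from the No Dox mean by log2 0.99, just under 2-fold, and 10.9% of genes differed by as much or more. Between 1wk WD and No Dox the log2 fold change was -0.35 (SE 0.19, 95% interval -0.75 to 0.054), with an adjusted p of 0.287 in limma.

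Of the surface sialomucins, Emcn (ENSMUSG00000054690, chr3:137004031-137095149, plus strand) scored 126734, 125960, 119045 and 132553 at No Dox, 174784 in the 1wk Dox sample, and 111545, 100163, 123805, 140162 and 78155 at 1wk WD. Its No Dox samples were the tightest of the 8 genes (SD 0.06 on the log2 scale), and its 1wk WD samples fell on both sides of them. The log2 difference was 0.47 for the 1wk Dox sample (0.12 after quantile normalization), and -0.21 (SE 0.15, 95% interval -0.54 to 0.11) with adjusted p = 0.419 in limma at 1wk WD. Cd34 (ENSMUSG00000016494, chr1:196765015-196787486, plus strand) scored 15886, 16314, 18994 and 15428 at No Dox, 25756 in the 1wk Dox sample, and 17554, 19342, 11311, 8613 and 15063 at 1wk WD. Here too the single 1wk Dox sample was the highest, by log2 0.63 over the No Dox mean, and the 1wk WD samples spread above and below No Dox. The log2 fold change of Cd34 from No Dox to 1wk WD was -0.27 (SE 0.2, 95% interval -0.7 to 0.17; adjusted p = 0.451). Of 6 related sialomucins, only Madcam1, the addressin that binds homing lymphocytes, was higher in the 1wk Dox sample (615 against 105 to 223 at No Dox, log2 2.08). Podxl, the podocalyxin gene and a close relative of Cd34, was lower at 1wk WD by an adjusted p of 0.0479 in limma but by less than 2-fold (log2 -0.40).

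Among the tip-cell genes, Apln and Esm1 parted in the 1wk Dox sample. Apln (ENSMUSG00000037010, chrX:45378323-45388030, minus strand) scored 863, 1057, 804 and 799 at No Dox and 4414 in the 1wk Dox sample, then 988, 853, 769, 1050 and 927 at 1wk WD. The 1wk Dox value was above all 9 other EC samples, and the other 2 groups were interleaved. Its log2 difference from the No Dox mean was 2.33, and 1.91% of all genes differed by as much or more. Apln at 1wk WD differed by log2 0.06 (SE 0.14, 95% interval -0.24 to 0.36; adjusted p = 0.83 in limma). Esm1 (ENSMUSG00000042379, chr13:113999867-114008306, plus strand) scored 43642, 36633, 53952 and 36301 at No Dox, 45009 in the 1wk Dox sample, and 31716, 31867, 33636, 44453 and 29566 at 1wk WD. The 1wk Dox sample was inside the No Dox range (log2 difference 0.10), and 4 of the 5 samples at 1wk WD were below every No Dox sample, with replicate 4 above 3 of them. For Esm1, withdrawal gave a log2 fold change of -0.31 (SE 0.15, 95% interval -0.63 to 0.0051; adjusted p = 0.234).

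Aplnr, the apelin receptor (ENSMUSG00000044338, chr2:84976517-84980079, plus strand), scored 11658, 13965, 14675 and 11201 at No Dox, 21240 in the 1wk Dox sample, and 20068, 17221, 13757, 15212 and 19335 at 1wk WD. The 1wk Dox sample was the highest, by log2 0.73 over the No Dox mean, and 4 of 5 samples at 1wk WD exceeded all No Dox samples. For Aplnr, withdrawal gave a log2 fold change of 0.41 (SE 0.13, 95% interval 0.12 to 0.69), a 1.33-fold difference with an adjusted p of 0.108 in limma. Set against its ligand within a sample, the Aplnr score was 13.2 to 18.3 times that of Apln at No Dox, 4.81 times in the 1wk Dox sample and 14.5 to 20.9 times at 1wk WD. That ratio is not corrected for gene length, so only its change between samples can be read, and it was lowest in the 1wk Dox sample. The gene of the other apelin receptor ligand, Apela, was not matched by symbol.

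The promoter of Apln is shown because that gene had the largest difference in the 1wk Dox sample. It is the 250 bases upstream of the RefSeq start, placed on mm9 at chrX:45388031-45388280 (minus strand) by exact match. Capitals mark GGAA or its complement TTCC, the core that ETS-family factors such as ERG bind. It held 3 matches and 12 CpG dinucleotides, where the median promoter of 32851 held 3 and 6, and 93.4% held at least 1 match.
Apln: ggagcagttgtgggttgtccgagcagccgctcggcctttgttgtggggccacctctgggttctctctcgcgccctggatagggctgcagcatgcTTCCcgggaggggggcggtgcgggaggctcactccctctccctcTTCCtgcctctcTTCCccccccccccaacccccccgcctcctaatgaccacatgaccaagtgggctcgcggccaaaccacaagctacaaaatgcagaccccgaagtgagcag

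Most of the other tip-cell genes were higher in the 1wk Dox EC sample. Of the 17, 15 were higher than the No Dox mean, 12 were above every No Dox EC sample and 6 were higher by 2-fold or more. Their median log2 difference was 0.65. Of all 14047 genes compared, 7809 were higher, 5037 (35.9%) were above every No Dox EC sample and 763 were higher by 2-fold or more. The 6 tip-cell genes past 2-fold were led by Kcne3, a potassium channel subunit (636 to 931 at No Dox, then 3019, log2 1.97). The others were the actin bundler Fscn1 (log2 1.48), the basement membrane nidogens Nid1 (1.28) and Nid2 (1.11), the peptide adrenomedullin Adm (1.06) and the chemokine receptor Cxcr4 (1.05). The lower pair was Kdr, the main VEGF-A receptor VEGFR2 (log2 -0.34), and its co-receptor Nrp1 (log2 -0.26). The endothelial identity genes were also mostly higher in that sample, 8 of 10 with a median log2 difference of 0.36, and their sum was 365255 against 266451 to 303649 at No Dox. Their part in the higher scores of that sample was not tested.

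At 1wk WD, limma called 0 of these 17 tip-cell genes against No Dox, with 13 lower and 4 higher and a median log2 difference of -0.29. Of them, 5 were lower by less than 2-fold with an adjusted p under 0.05, as 1.14% of all genes were: Kdr (log2 -0.98, adjusted p = 0.00348), Igfbp3 (-0.85, 0.00644), Nrp1 (-0.68, 0.00779), the VEGFR3 gene Flt4 (-0.46, 0.0165) and the urokinase receptor gene Plaur (-0.86, 0.0221). For Kdr the samples separated cleanly, with 92107 to 105159 at No Dox, then 77811 at 1wk Dox, and finally 39326 to 61402 after withdrawal.

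**Figure D2:**
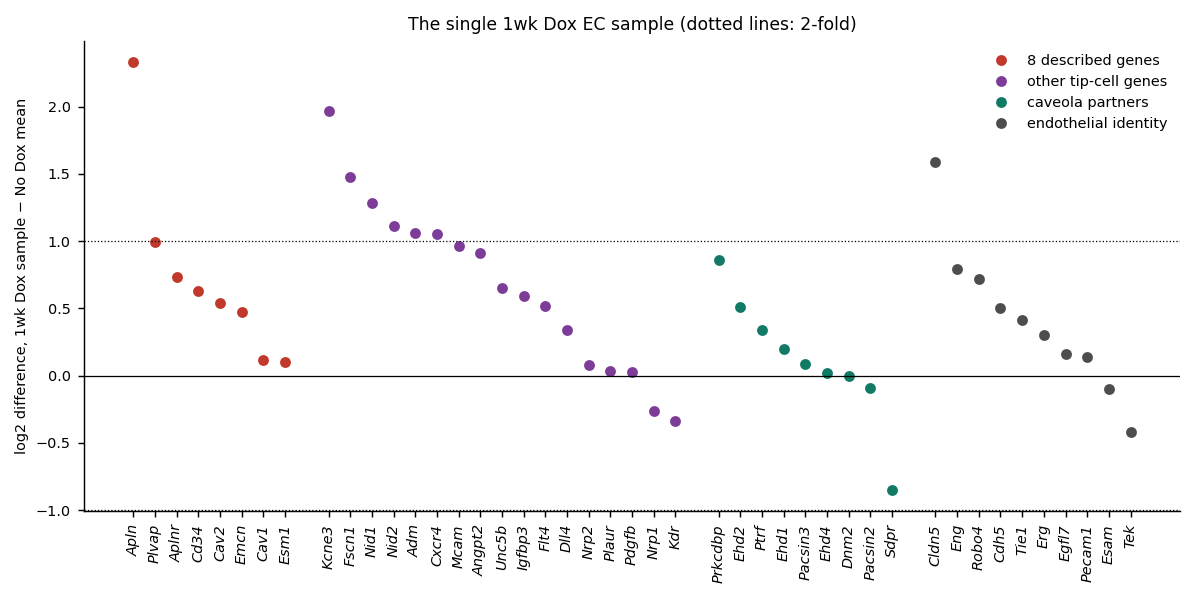
Log2 difference of the single 1wk Dox EC sample from the mean of the No Dox ECs, 1 point per gene, for the 8 genes, other tip-cell genes, caveola partners and endothelial identity genes with a No Dox mean score of at least 20; dotted lines mark 2-fold. Apln is the highest of the 8 at 2.33, and Esm1 (0.10) and Cav1 (0.12) lie near 0.

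Neither caveolin gene differed by 2-fold in ECs at any time. Cav1 (ENSMUSG00000007655, chr6:17256335-17291452, plus strand) scored 13578, 17191, 19556 and 18054 at No Dox, 18423 in the 1wk Dox sample, and 17360, 21334, 20837, 20563 and 20520 at 1wk WD. The 1wk Dox sample lay inside the No Dox range, and 4 of 5 samples at 1wk WD lay above it. Between 1wk WD and No Dox, Cav1 differed by log2 0.24 (SE 0.11, 95% interval -0.0051 to 0.49; adjusted p = 0.236 in limma). Cav2 (ENSMUSG00000000058, chr6:17231185-17239115, plus strand) scored 2667, 3095, 3498 and 3397 at No Dox, 4563 in the 1wk Dox sample, and 2664, 3842, 2531, 2374 and 2301 at 1wk WD. It was highest in the 1wk Dox sample (log2 0.54 over the No Dox mean), and 4 of 5 samples at 1wk WD were below every No Dox sample, with replicate 2 above them all. Cav2 differed by log2 -0.22 (SE 0.15, 95% interval -0.55 to 0.1; adjusted p = 0.396). The score of Cav1 over that of Cav2, read only as a change between samples, was 5.09 to 5.59 in No Dox ECs, 4.04 in the 1wk Dox sample and 5.55 to 8.92 at 1wk WD.

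Their partners in the caveola coat and neck were also mixed. In the 1wk Dox EC sample, 6 of the 11 were higher and 4 lower (Cav3, the muscle caveolin, stood at 1), with a median log2 difference of 0.022. Prkcdbp was the highest at log2 0.86 and Sdpr the lowest at log2 -0.85. At 1wk WD limma called 0 of the 9 tested, with 3 higher and 6 lower and a median log2 difference of -0.14.

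Cav2 and Cav1 lie side by side on chromosome 6, with 17219 bases from the end of Cav2 to the start of Cav1. Their promoters are shown because both were EC genes here, while MΦs had a far larger share of the EC level of Cav2 than of Cav1. Each is the 250 bases before the RefSeq start on mm9 (Cav2 chr6:17230935-17231184, Cav1 chr6:17256085-17256334, both plus strand), with GGAA or TTCC in capitals. Cav2 held 3 matches and Cav1 held 1, and each held 10 CpG dinucleotides. RefSeq gives Cav1 a second start 1305 bases downstream, whose promoter held 3 matches and 12 CpG dinucleotides, so the count of matches does not set the genes apart.
Cav2: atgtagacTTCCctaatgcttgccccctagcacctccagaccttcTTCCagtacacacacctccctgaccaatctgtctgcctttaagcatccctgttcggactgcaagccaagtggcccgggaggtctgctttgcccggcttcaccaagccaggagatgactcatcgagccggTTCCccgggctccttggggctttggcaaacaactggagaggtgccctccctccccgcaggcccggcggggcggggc
Cav1: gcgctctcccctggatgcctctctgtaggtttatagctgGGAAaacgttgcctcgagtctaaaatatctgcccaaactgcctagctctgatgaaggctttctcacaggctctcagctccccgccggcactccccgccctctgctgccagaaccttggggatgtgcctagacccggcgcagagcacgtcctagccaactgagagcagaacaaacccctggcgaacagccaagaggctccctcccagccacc

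**Figure D3:**
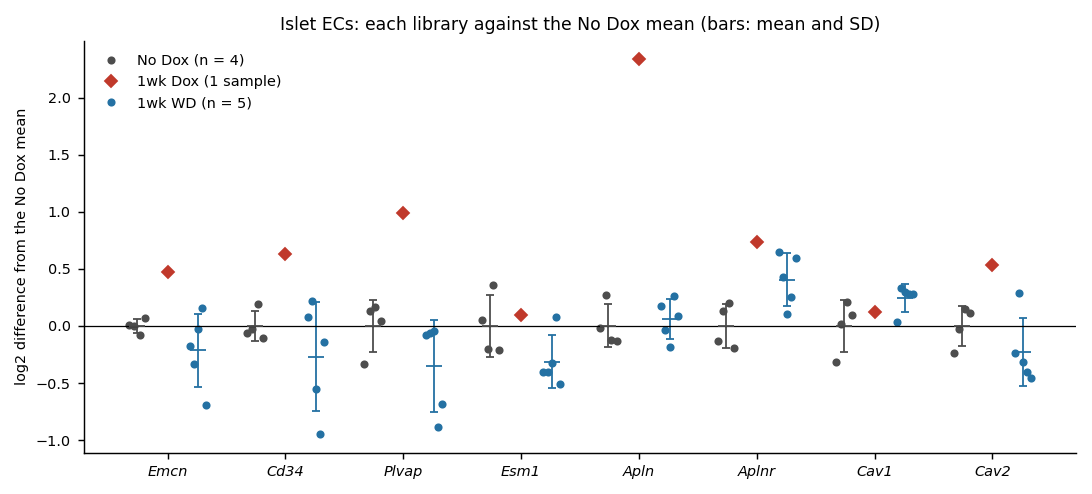
Log2 difference of each EC sample from the mean of the No Dox ECs for the 8 genes, with mean ± SD per group at No Dox (n = 4) and 1wk WD (n = 5) and a red diamond for the single 1wk Dox sample. The diamond is above the No Dox points for 6 genes and among them for Esm1 and Cav1, and the 1wk WD points overlap No Dox for all 8.

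In MΦs, Emcn, Aplnr and Esm1 had the largest differences of the 8 genes at 1wk Dox, by log2 3.28 to 3.46, and no gene of the 8 was called. Limma called 0 of 8 at 1wk Dox against No Dox, where 2.26% of all genes were called, and at an unadjusted p under 0.05 there were 5 of 8, against 21.3% of genes. For 6 of the 8 (not Apln and Cd34), both 1wk Dox samples were above all 4 No Dox samples, as they were for 16.2% of all genes. The median log2 difference of the 8 was 2.04, against 0.035 for all genes.

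Aplnr scored 15, 22, 2 and 54 in No Dox MΦs and 193 and 132 at 1wk Dox, groups that did not overlap (log2 3.36, SE 0.95, 95% interval 1.31 to 5.4; 10.2-fold; adjusted p = 0.0629). It was called after quantile normalization, with a pseudocount of 20, or without No Dox replicate 3 or 4, at adjusted p-values of 0.0309 to 0.0441. Its size was not stable: log2 2.19 with that pseudocount, and 2.56 (without No Dox replicate 3, which scored 2) to 3.96 (without No Dox replicate 4) with 1 sample left out. Over the same omissions Emcn ran from 3.02 to 3.93 and Esm1 from 2.35 to 4.22, lowest without 1wk Dox replicate 4 for both. Emcn scored 44, 120, 27 and 28, then 686 and 370 (log2 3.46, SE 1.19, 95% interval 0.88 to 6.05; 11-fold; adjusted p = 0.117). Plvap scored 59, 42, 142 and 39, then 403 and 219 (log2 2.27, 4.81-fold, adjusted p = 0.109). All 3 were higher in both 1wk Dox samples than in any No Dox sample, from low scores: the highest, 686, was 0.544% of the No Dox EC mean of Emcn. Esm1 scored 37, 3, 2 and 15, then 171 and 46 (log2 3.28, adjusted p = 0.223). Apln (7, 35, 9 and 9, then 61 and 32; adjusted p = 0.348) and Cd34 (167, 72, 72 and 108, then 269 and 127; adjusted p = 0.415) overlapped between the groups.

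Endothelial markers moved in the same samples. The 10 endothelial identity genes summed to 2017 to 2421 in No Dox MΦs, were 3720 and 4143 in the 1wk Dox pair and lay between 2647 and 3116 after withdrawal. At 1wk Dox 8 of the 9 tested were higher, with a median log2 difference of 1.86, and limma called Erg, an endothelial transcription factor (log2 2.41, adjusted p = 0.0281), which scored 29 to 43 at No Dox and 219 and 153 at 1wk Dox. That call was lost without No Dox replicate 1 (adjusted p = 0.0506) and without either 1wk Dox sample (0.493 without replicate 4, 0.149 without replicate 5), in the replicate block (0.463), and with only the 2 groups in the fit (0.1). Cldn5 stood at 1 in all 4 No Dox samples. As a percentage of its No Dox EC mean, the median marker stood at 0.0879 to 0.248 in No Dox MΦs and at 0.751 and 0.398 in the 1wk Dox samples, and Aplnr at 0.0155 to 0.419 and at 1.5 and 1.03. Other lists moved too. All 6 acinar genes were lower in both 1wk Dox samples than in any No Dox sample (median log2 difference -7.99, 3 called), with sums of 21249 to 10407305 at No Dox and of 1018 and 3148 at 1wk Dox. Higher at 1wk Dox were 9 of 10 β cell genes (median log2 difference 0.74, none called) and 7 of 9 pericyte and fibroblast genes tested (0.84, none called). The part of any of these in the MΦ values was not tested. Of the 17 other tip-cell genes, limma called Fscn1 alone, higher at 1wk Dox (104 to 623 at No Dox, then 1922 and 1563; log2 2.81, adjusted p = 0.0135). The Fscn1 call was lost without either 1wk Dox sample (0.344 without replicate 4, 0.0801 without replicate 5) in the replicate block (0.0953), with only the 2 groups in the fit (0.0802), and with no trend of the spread (0.0694).

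Relative to its EC level, Cav2 was the highest of the 8 in every MΦ sample. It scored 311, 381, 221 and 334 at No Dox, then 619 and 423, and after withdrawal 262, 318, 251 and 292. Those are 6.98 to 12.0% of its No Dox EC mean at No Dox, 19.6 and 13.4% in the 1wk Dox pair and 7.93 to 10.0% after withdrawal, well above the endothelial marker median of the same samples. Cav1, by contrast, scored 32, 54, 67 and 63 at No Dox, which is 0.187 to 0.392% of its EC mean. The ratio of Cav1 to Cav2 scores was 0.00763 to 0.418 in MΦs, below the 4.04 to 8.92 in ECs in every sample. At 1wk Dox the log2 difference of Cav2 was 0.74 (1.67-fold, adjusted p = 0.173) and that of Cav1, 133 and 77, was 0.95 (adjusted p = 0.675).

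After withdrawal, Aplnr was the one gene of the 8 for which every MΦ sample was above all No Dox samples, as 4.98% of all genes were. Limma called 0 of 8 at 1wk WD against No Dox, where 0.626% of genes were called, with 1 of 8 at an unadjusted p under 0.05 against 17.3% of genes, 3 higher and 5 lower, and a median log2 difference of -0.21. That 1 was Aplnr, which scored 79, 60, 111 and 208 at 1wk WD, all above the 2 to 54 of No Dox (log2 2.72, 95% interval 1.05 to 4.39; 6.59-fold; adjusted p = 0.0978), with log2 1.92 to 3.32 when 1 sample was left out, lowest without No Dox replicate 3. Other lists moved in the same comparison: all 9 pericyte and fibroblast genes tested (median log2 difference 1.04) and 7 of 9 endothelial identity genes (0.73) were higher, and all 6 acinar genes were lower (-6.17), none called and their part not tested. Against 1wk Dox, all 8 were lower at 1wk WD with a median log2 difference of -1.96. Limma called 0 of them, where 0.0866% of genes were called, and 4 of 8 had an unadjusted p under 0.05, against 9.7% of genes. In that comparison all 9 endothelial identity genes tested (median log2 difference -0.76) and all 10 β cell genes (-1.42) were lower too. All 6 acinar genes were higher (1.69). None of these was called, and their part was not tested.

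In β cells, all 8 genes were higher on average at 1wk Dox, by log2 1.91 (Emcn) to 3.29 (Cd34), and none was called. Limma called 0 of 8, where 0.0122% of genes were called, and 4 of 8 had an unadjusted p under 0.05 (Plvap, Cd34, Cav1 and Cav2), against 6.99% of genes. The median log2 difference of the 8 was 2.73, against 0.032 for all genes. Leaving out 1 sample moved Emcn between log2 1.31 (without 1wk Dox replicate 1) and 2.78 (without replicate 5), Cd34 between 2.51 (without No Dox replicate 2) and 3.93 (without No Dox replicate 4), and Esm1 between 1.44 and 4.26 (without 1wk Dox replicates 1 and 5). Acinar genes were all 6 lower in every 1wk Dox sample than in any at No Dox (median log2 difference -9.11, none called), and their part was not tested. Cd34 scored 31, 14, 247 and 284 at No Dox and 3265, 1291, 1403, 211 and 186 at 1wk Dox (log2 3.29, SE 1.08, 9.81-fold, adjusted p = 0.559). Esm1 scored 178, 191, 167 and 16, then 7328, 2813, 3060, 206 and 2 (log2 2.39, adjusted p = 0.846). Replicates 1 to 3 of 1wk Dox were the high ones for both genes, and replicates 4 and 5 lay within the No Dox range for Cd34 and beyond its ends for Esm1.

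The high samples held other endothelial transcripts too. Across the 5 samples at 1wk Dox, the median endothelial identity gene stood at 12.6, 4.33, 5.80, 1.07 and 0.213% of its No Dox EC mean, and at 0.325 to 1.00% at No Dox. The 9 such genes tested were all higher, with a median log2 difference of 2.20. In 1wk Dox replicate 1, Emcn stood at 11%, Plvap at 13.4%, Esm1 at 17.2%, Cd34 at 19.6% and Aplnr at 26.8% of the No Dox EC mean, beside the markers' median of 12.6%. Apln was higher, at 65.7% in replicate 1, 16.8% in replicate 2 and 38.6% in replicate 3. The highest endothelial marker stood at 93.1, 17.5 and 13.4% in these samples. Against the single 1wk Dox EC sample, in which Apln was itself higher, those values were 13.1, 3.35 and 7.7%, beside marker medians of 11.7, 4.43 and 4.06%. The part of endothelial RNA in these values was not tested.

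In some β cell samples Cav1 and Cav2 stood far above the median of the endothelial markers. In No Dox replicate 4, Cav1 scored 2019 and Cav2 547, or 11.8 and 17.3% of their EC means, where the marker median was 1.00% and the highest marker 18.8%. In 1wk Dox replicate 4 they stood at 16.5 and 11.8%, with the marker median at 1.07% and the highest at 11.1%. The 10 β cell identity genes summed to 644064 and 513966 in these samples, the lowest sum of each group. Sums reached 8751584 in other No Dox β cells and 2977977 in others at 1wk Dox. Pericyte and fibroblast genes summed to 500710 and 421177 in those samples and to 1000 and 1127 in No Dox replicates 1 and 2, where Cav1 scored 82 and 26. At 1wk Dox all 10 of that list were higher in β cells, with a median log2 difference of 3.76 and none called, and their part in the caveolin values was not tested. Cav1 overlapped between the groups, from 26 to 2019 at No Dox and from 546 to 5482 at 1wk Dox (log2 2.90, adjusted p = 0.66). With 1 sample left out, its log2 difference ran from 1.85 to 3.93.

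**Figure D4:**
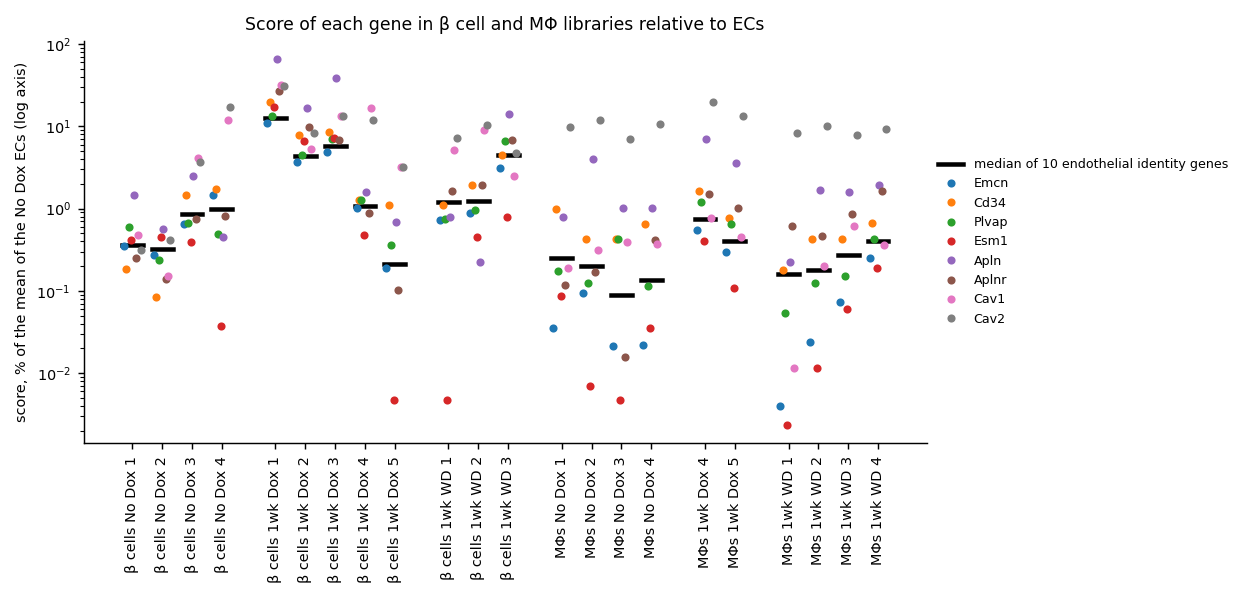
Each β cell and MΦ sample, with each of the 8 genes as a percentage of its mean in No Dox ECs on a log axis and a black bar at the median of the 10 endothelial identity genes in that sample. In MΦs Cav2 (6.98 to 19.6%) stands above the bar in every sample, and in β cells all 8 genes and the bar are highest in 1wk Dox replicate 1.

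At 1wk WD, limma called 0 of the 8 in β cells against No Dox, where 0% of genes were called, and 0 of 8 had an unadjusted p under 0.05, against 8.17% of genes; 7 of the 8 were higher, with a median log2 difference of 1.83. Plvap scored 249, 322 and 2192 at 1wk WD against 79 to 222 at No Dox, and Esm1 scored 2, 194 and 337 against 16 to 191. Aplnr, higher in MΦs at this time, was also higher here, at 208, 250 and 876 against 18 to 104 (log2 2.83, adjusted p = 0.62 in limma). Replicate 3 was the highest 1wk WD sample for each of these genes. Its endothelial marker median was 4.48%, against 1.2 and 1.24% in replicates 1 and 2. All 10 pericyte and fibroblast genes (median log2 difference 3.54) and all 10 MΦ genes (median 2.02) were also higher in this comparison. So were all 9 endothelial identity genes tested (0.93), while all 6 acinar genes were lower (-5.88). None of these was called, and their part was not tested. Against 1wk Dox, all 8 were lower, with a median log2 difference of -0.92. None was called (0% of genes, by limma) and 0 of 8 had an unadjusted p under 0.05, against 6.31% of genes. In that comparison 6 of 9 endothelial identity genes tested (median log2 difference -0.38) and 7 of 10 pericyte and fibroblast genes (-0.54) were lower. Of the MΦ genes 9 of 10 were higher (1.37), as were all 6 acinar genes (3.09). None of these was called, and their part was not tested.

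**Figure D5:**
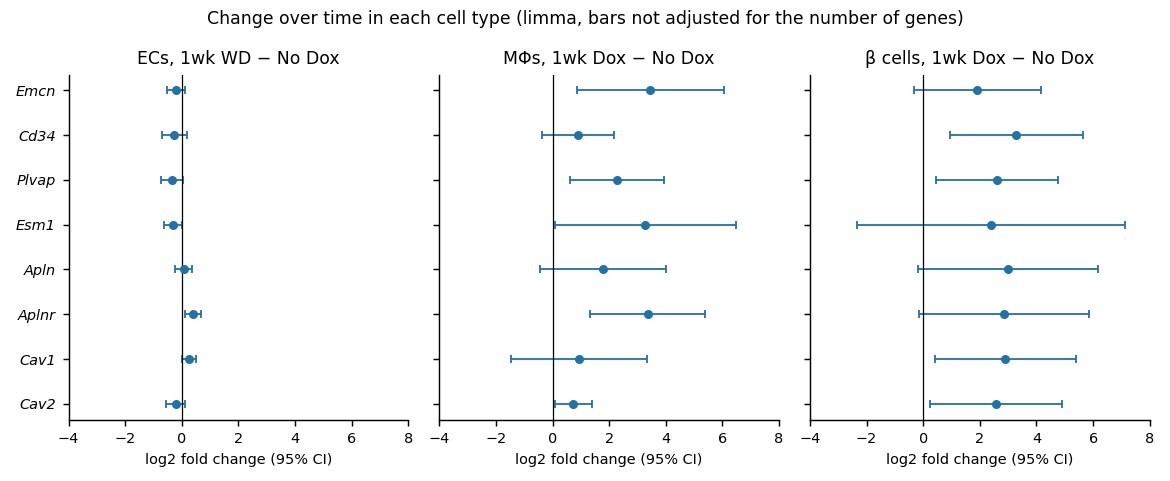
Log2 fold changes with 95% intervals from limma for the 8 genes in ECs (1wk WD against No Dox), MΦs (1wk Dox against No Dox) and β cells (1wk Dox against No Dox). The intervals are narrow in ECs, where only that of Aplnr (0.12 to 0.69) excludes 0, and wide in MΦs and β cells.

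Whether the 8 genes responded to withdrawal differently in ECs was tested as an interaction, 1wk WD against No Dox in ECs minus the same in another cell type. Against MΦs limma called 0 of 8, where 1.4% of genes were called, with 1 of 8 at an unadjusted p under 0.05 against 21.2% of genes. That 1 was Aplnr, whose difference was log2 -2.31 (95% interval -3.99 to -0.63, adjusted p = 0.119): it was 1.33-fold higher at 1wk WD in ECs and 6.59-fold higher in MΦs, from very different levels. Without MΦ No Dox replicate 4 it was called (log2 -2.92, adjusted p = 0.0323). The one tip-cell gene called was Nrp1 (log2 -1.14, adjusted p = 0.00719, just under 2-fold after quantile normalization). Against β cells limma called 0 of 8, where 0.0913% of genes were called, with 3 of 8 at an unadjusted p under 0.05 against 13.1% of genes. The values nearest to a call were Aplnr (log2 -2.42, adjusted p = 0.195) and Plvap (log2 -2.20, adjusted p = 0.26). Leaving out 1 sample moved Aplnr between log2 -2.81 and -1.78, and Plvap between -2.78 and -1.21.

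The genes whose scores ran most closely with each of the 8 over the 32 samples included well-known endothelial genes such as Ptprb, Robo4, Tie1 and Flt1. Pearson's r of log2(score + 1) was computed against 16968 genes, and since the samples are of 3 cell types, it mostly describes the contrast of ECs with the rest. Emcn ran with Ptprb (r = 0.99), the vascular endothelial phosphatase gene, and with Col13a1 (0.986) and Clec14a (0.982). Plvap ran with Podxl (0.983), Lama3 (0.982) and Col13a1 (0.98), and Esm1 with Robo4 (0.979), Btnl9 (0.978) and Pcdh17 (0.976). Aplnr ran with Ctla2a (0.975), Tie1 (0.971) and Sox7 (0.968), and its ligand Apln with Ces2e (0.972), Gpihbp1 (0.963) and Myct1 (0.957). Cd34 was nearest to the VEGF receptor gene Flt1 (0.974), Dok4 (0.973) and Lphn2 (0.972). Cav1 was nearest to Tspan12 (0.978), the endothelin receptor gene Ednrb (0.976) and Epas1 (0.972), and Cav2 to Nrp1 (0.978), Crim1 (0.973) and Slc44a2 (0.968), so that the caveolins shared no gene among these nearest 3.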

How the data were processed

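Islet cells were sorted by the authors, and RNA was amplified with a NuGEN Ovation kit, sequenced, aligned to mm9 (TopHat2 2.0, per the submitters' processing notes) and TMM-normalized with Avadis NGS software. What the authors deposited are scores, which are those values as integers. The annotation version is not given in the sources used here. Of 38 sample columns, 6 hold 1wk Dox ECs and MΦs that are not among the samples analysed here. They were not used, which is why those groups hold 1 and 2 samples.

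Values were taken as log2(score + 1) and modelled in limma 3.58.1 (R 4.3.3, empirical Bayes with a trend), keeping genes whose mean score reached 20 in 1 or more groups of the fit. β cell and MΦ fits took 3 time points, the EC fit No Dox and 1wk WD, and cell types were compared at No Dox and at 1wk WD. Log2 differences and folds compare means of log2(score + 1), not means of scores. P-values were adjusted by Benjamini-Hochberg over all genes tested. With the source mice of each sample not listed, they measure the spread between samples, which may be partly technical. Figures used Python 3.11.15 and matplotlib 3.10.9.

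Promoter sequences came from a RefSeq table (GRCm38.p6), which had 6 of the 8 genes, without Plvap and Aplnr, and were placed on mm9 by exact match. The 8 genes, the marker and pathway lists and the tests were chosen with earlier results of these data known. All 8 genes are named, with genes of other lists where called or where they differed most, and the 3 most correlated genes of each.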

Additional observations from a re-analysis of the deposited data

Results flagged for a closer look

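Of 48 groups of 4 or more samples examined over the 8 genes, 5 held 1 sample far from the rest by Dixon's criterion at the 95% level, which chance gives in about 1 in 20 groups. In ECs at 1wk WD, Esm1 was highest in replicate 4, at 44453 against 29566 to 33636 in the others, Cav2 was highest in replicate 2, at 3842 against 2301 to 2664, and Cav1 was lowest in replicate 1, at 17360 against 20520 to 21334. In No Dox β cells, Esm1 was lowest in replicate 4, at 16 against 167 to 191. In No Dox MΦs, Apln was highest in replicate 2, at 35 against 7 to 9.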

How the results depend on the processing

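Over pseudocounts of 0.1 and 20, no filter or one at 200, scaling by the median of ratios, quantile normalization, a spread without trend, fits of 2 groups alone, a replicate block and each sample left out, the 8 calls in each cell type comparison and the 0 in each time comparison stood, with these exceptions. In MΦs at 1wk Dox, Aplnr was the 1 gene called with a pseudocount of 20 (log2 2.19, adjusted p = 0.0381) and with quantile normalization (2.97, 0.0365). Leaving out 1 sample gave 0 to 1 calls there: Aplnr without No Dox replicate 3 (2.56, 0.0441) or 4 (3.96, 0.0309), with its adjusted p from 0.0309 to 0.602 over all omissions. In the interaction of ECs and MΦs, it gave 0 to 1, Aplnr without MΦ No Dox replicate 4 (log2 -2.92, adjusted p = 0.0323, of 0.0323 to 0.206). Of the 8, 1 to 2 genes were past 2-fold in the 1wk Dox EC sample, Plvap joining Apln without No Dox replicate 2, 3 or 4. With quantile normalization, Emcn in ECs at 1wk WD turned to log2 0.041 (adjusted p = 0.91), 6 rather than 7 of the 8 genes were higher in β cells at 1wk WD, and the median log2 difference of all genes between ECs and β cells moved from -0.066 to 0.16 at No Dox and from -0.12 to 0.28 at 1wk WD, all 8 genes still higher in ECs. The cause was not tested in any of these. Fitting the 1wk Dox EC sample with the spread of the other EC groups, which assumes that it varies like them and is no replicate check, gave Apln an adjusted p of 0.000678 and Plvap 0.125, with 272 of 14281 genes called.

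Same-numbered samples deviated together in some pairs and not in others (correlations from -0.466 to 0.371, highest for No Dox replicate 2 of ECs and MΦs), so the numbers were not taken as pairs. Acinar genes were highest in replicate 2 of both cell types at No Dox, with sums of 1552663 and 10407305, and in replicate 1 of all 3 cell types at 1wk WD. The replicate block changed no call among the 8. It changed the counts over all genes in MΦs at 1wk Dox from 340 to 3, in β cells at 1wk Dox from 2 to 0, in MΦs at 1wk WD from 94 to 43 against No Dox and from 13 to 0 against 1wk Dox, and in the interaction with β cells from 15 to 0. Over the settings other than omissions, counts ran from 3 to 436 in MΦs at 1wk Dox, 11 to 118 in MΦs at 1wk WD, 0 to 79 in MΦs at 1wk WD against 1wk Dox, 76 to 283 in ECs at 1wk WD, 0 to 6 in β cells at 1wk Dox, and 0 to 25 in the interaction with β cells. Leaving out 1 sample gave 0 to 487 in MΦs at 1wk Dox (0 without 1wk Dox replicate 4, 49 without replicate 5), 23 to 123 in MΦs at 1wk WD (23 when replicate 2 or 3 of that group was dropped, 33 when replicate 4 was) and 0 to 8 against 1wk Dox, 75 to 311 in ECs at 1wk WD (75, 76 and 138 without No Dox replicates 3, 1 and 2), 1 to 26 in β cells at 1wk Dox (26 without No Dox replicate 2), 1 to 241 in the interaction with β cells (241 without β cell No Dox replicate 4, 108 without 1wk WD replicate 3), and 92 to 362 in that with MΦs, where the full count was 219.

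Depth is unknown, so the precision of scores below about 100, which include most MΦ values of these genes, cannot be given. The 1wk Dox ECs are 1 sample and the 1wk Dox MΦs are 2.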
